A study of Homo sapiens with 6 samples.

Results

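Of the 32943 gene rows in the deposited count table, 31 are protein-coding rows for genes of mitochondrial protein import. They are the rows whose symbol begins with TIMM or TOMM, together with SAMM50, PAM16, DNLZ, GRPEL1 and GRPEL2. By place in the cell, 9 belong to the outer membrane, 6 to the space between the membranes and 13 to the inner membrane and its motor. TIMMDC1 and TOMM34 share the name but were counted in none of these places. TIMM23B-AGAP6 carries the name of a readthrough transcript and is protein-coding in the count table. The annotation used here for overlaps lists LINC00843, a long noncoding RNA, with the same 131 exon bases shared with TIMM23B. Its total of 3626 counts is that of the TIMM23B-AGAP6 row. They appear to be the same gene, so whether this row is a readthrough or protein-coding is uncertain. TOMM6, a further small subunit of the outer membrane complex, was not analysed here. RNA came from cells that carry the label AGS, which is a gastric adenocarcinoma line of human origin, 48 h after Lipofectamine transfection with a control plasmid (3 libraries) or with a plasmid carrying Flag-tagged IGF2BP3 (3 libraries). Expression after transfection is from the plasmid beside the cells' own gene, no untransfected group was analysed here, and the labels do not say whether libraries came from separate cultures. The p-values therefore speak only to variation among these libraries, and that variation could be technical.

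Most mitochondrial proteins are encoded in the nucleus, made in the cytosol and carried into the organelle. The TOM complex of the outer membrane is the common gate. Its receptors TOMM20, TOMM22 and TOMM70 bind incoming chains and TOMM40 forms the pore. Beyond it, SAMM50 inserts barrel proteins into the outer membrane, small TIM chaperones escort hydrophobic proteins through the intermembrane space, the TIM22 complex inserts carriers into the inner membrane, and the TIM23 complex with its HSPA9 motor draws presequence proteins into the matrix. IGF2BP3 is an RNA-binding protein known to bind mRNAs and to affect their stability and translation, and the series asked which transcripts lie downstream of it.

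The libraries held 33555366 to 37633587 counts. IGF2BP3 stood at 90.6, 102 and 100.2 CPM with the control plasmid and at 511, 573 and 664 CPM with its own, a 5.97-fold difference (two-sided exact permutation p = 0.1, the smallest that 3 against 3 libraries allow). CPM is the count scaled to 1000000 counts of a library after TMM scaling of the libraries. Markers of the labelled tissue were low. Of 13 gastric epithelial markers only 2, CTSE and PGC, reached a mean of 1 CPM, 3 (GKN1, GKN2 and CBLIF) had no row, and the list summed to 9.51 to 12.2 CPM in controls and 6.10 to 7.52 CPM with overexpression. Of 13 liver markers 12 reached 1 CPM, led by ALB (1512 CPM in controls and 770.1 CPM with overexpression), and they summed to 4210 to 4456 CPM in controls and 2505 to 2815 CPM with overexpression. The markers thus go against the label, and the cells are called cells labelled AGS throughout. The 5 general epithelial markers, led by KRT8, summed to 9782 to 10255 and 8865 to 10240 CPM. Among 5 blood markers only CD14 (69.00 and 26.5 CPM) reached 1 CPM, the 6 fibroblast markers, led by LUM, summed to 210.2 to 220.4 and 121 to 135 CPM, and the 3 endothelial markers stayed under 1 CPM in all. The part of these marker changes in the import genes was not tested. Control replicate 1 and overexpression replicate 3 stood apart from their groups, with a chi-square per gene of 8.74 or more and 7.58 or more against their own group, where the closest pairs had 2.04 and 2.48.

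The sequences just before the RefSeq starts of the genes were read because the members moved mostly one way. RefSeq promoter sequences (GRCh38.p14) matched 26 of the 31 members, and the 250 bases before the annotated start were searched on both strands for CCGGAAGT (the core of ETS-family sites, to which the mitochondrial gene regulator GABPA belongs), CGCATGCG (a core of NRF1 sites), CACGTG (the E-box), AAGATGGC (a YY1 core) and CCAAT. CCGGAAGT was present in 7 of 26 members (26.9%) and in 5.09% of 15843 protein-coding promoters of the same length. Those 15843 were not limited to tested genes. Among tested genes with a window and a mean of at least 10 CPM, 659 held these letters and 6855 did not. CGCATGCG was present in 2 members, TIMM9 and TOMM7 (7.69% against 2.49%), CACGTG in TOMM20 (3.85% against 7.84%), AAGATGGC in TOMM40L (3.85% against 1.39%) and CCAAT in 9 (34.6% against 34.5%). The windows below are those of receptors, a motor factor and chaperones described in the results, 5′ to 3′ on the gene's strand, with the first 4 motifs in capitals. TIMM44 is shown because it had the largest rise and its window holds none of those 4.
TOMM20 (chr1:235128838-235129087, minus strand): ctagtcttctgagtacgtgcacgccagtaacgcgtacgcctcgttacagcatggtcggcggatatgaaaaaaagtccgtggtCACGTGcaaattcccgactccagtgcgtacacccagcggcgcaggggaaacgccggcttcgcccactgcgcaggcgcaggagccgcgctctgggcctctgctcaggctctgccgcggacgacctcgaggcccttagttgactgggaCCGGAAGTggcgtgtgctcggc
TOMM70 (chr3:100401090-100401339, minus strand): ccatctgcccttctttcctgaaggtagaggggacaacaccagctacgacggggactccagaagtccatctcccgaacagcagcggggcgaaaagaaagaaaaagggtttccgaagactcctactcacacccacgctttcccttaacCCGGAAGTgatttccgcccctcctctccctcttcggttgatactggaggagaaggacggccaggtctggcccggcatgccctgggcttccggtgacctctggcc
GRPEL2 (chr5:149345249-149345498, plus strand): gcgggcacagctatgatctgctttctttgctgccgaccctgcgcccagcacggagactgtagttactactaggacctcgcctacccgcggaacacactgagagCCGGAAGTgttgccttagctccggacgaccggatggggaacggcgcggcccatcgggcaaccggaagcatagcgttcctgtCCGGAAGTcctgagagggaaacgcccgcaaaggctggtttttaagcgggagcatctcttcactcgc
TIMM10 (chr11:57530755-57531004, minus strand): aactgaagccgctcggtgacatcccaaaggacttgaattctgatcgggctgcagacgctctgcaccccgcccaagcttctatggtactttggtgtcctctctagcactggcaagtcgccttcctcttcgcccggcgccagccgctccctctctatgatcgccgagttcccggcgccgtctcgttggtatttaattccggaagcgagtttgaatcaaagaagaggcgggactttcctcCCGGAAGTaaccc
TIMM9 (chr14:58427532-58427781, minus strand): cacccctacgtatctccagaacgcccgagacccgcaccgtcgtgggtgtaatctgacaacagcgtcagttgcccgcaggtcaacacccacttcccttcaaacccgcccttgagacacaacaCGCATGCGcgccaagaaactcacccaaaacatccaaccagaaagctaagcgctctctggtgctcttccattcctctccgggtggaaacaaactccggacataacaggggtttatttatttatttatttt
TIMM44 (chr19:7943667-7943916, minus strand): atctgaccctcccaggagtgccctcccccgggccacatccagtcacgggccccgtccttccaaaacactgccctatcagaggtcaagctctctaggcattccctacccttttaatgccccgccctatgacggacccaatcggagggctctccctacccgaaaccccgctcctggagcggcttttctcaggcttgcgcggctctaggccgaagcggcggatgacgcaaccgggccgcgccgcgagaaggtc
The first base of CCGGAAGT or its complement lay 22 bases before the RefSeq start in TOMM20, 104 in TOMM70, 13 in TIMM10 and 66 and 147 in GRPEL2. The gene positions printed with the results are from GENCODE, which places the starts of these genes farther upstream. By those positions the whole TOMM70 and TIMM44 windows lie inside the gene. So do the TOMM20 and TIMM10 sites and the GRPEL2 site at 66. Of the sites listed, only the GRPEL2 site at 147 lies before both starts. A match to these letters is a description and not a binding site.

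Of the 30 members that could be tested, 18 rose with IGF2BP3 overexpression, 0 fell and 12 did not pass (edgeR quasi-likelihood test, Benjamini-Hochberg adjusted p under 0.05 over all 17747 genes tested). Over all genes tested 18.5% rose and 19.2% fell, and among the 9562 genes with a mean of at least 10 CPM 28.8% rose and 22.1% fell. The 0 falls held at an unadjusted p under 0.05 as well, where a further 3 members, TOMM40, DNLZ and TIMM23B-AGAP6, were higher, and DESeq2 also called 0 lower. The changes were small. The median log2 fold change (overexpression over control) of the 30 members was 0.20, with a range from −0.04 to 0.46, against −0.01 over all genes tested and 0.04 over the genes at 10 CPM or more. All 3 overexpression libraries were above all 3 controls for 22 of 30 members, where 25.3% of all genes tested showed that. In either direction, the groups did not overlap in 8988 of 17747 genes tested and in 6020 of the 9562 genes at 10 CPM or more. TOMM20L, a TOMM20-like gene at 3 to 12 counts per library, was too low to test. When trends on transcript GC content and length were removed per library, 26 members rose and 0 fell, while the calls over all genes shifted from 3288 higher and 3410 lower to 4517 and 3034. Without control replicate 1 and overexpression replicate 3 together, 24 members rose and 0 fell, beside 3463 higher and 3473 lower of 17830 genes tested.

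**Figure D1:**
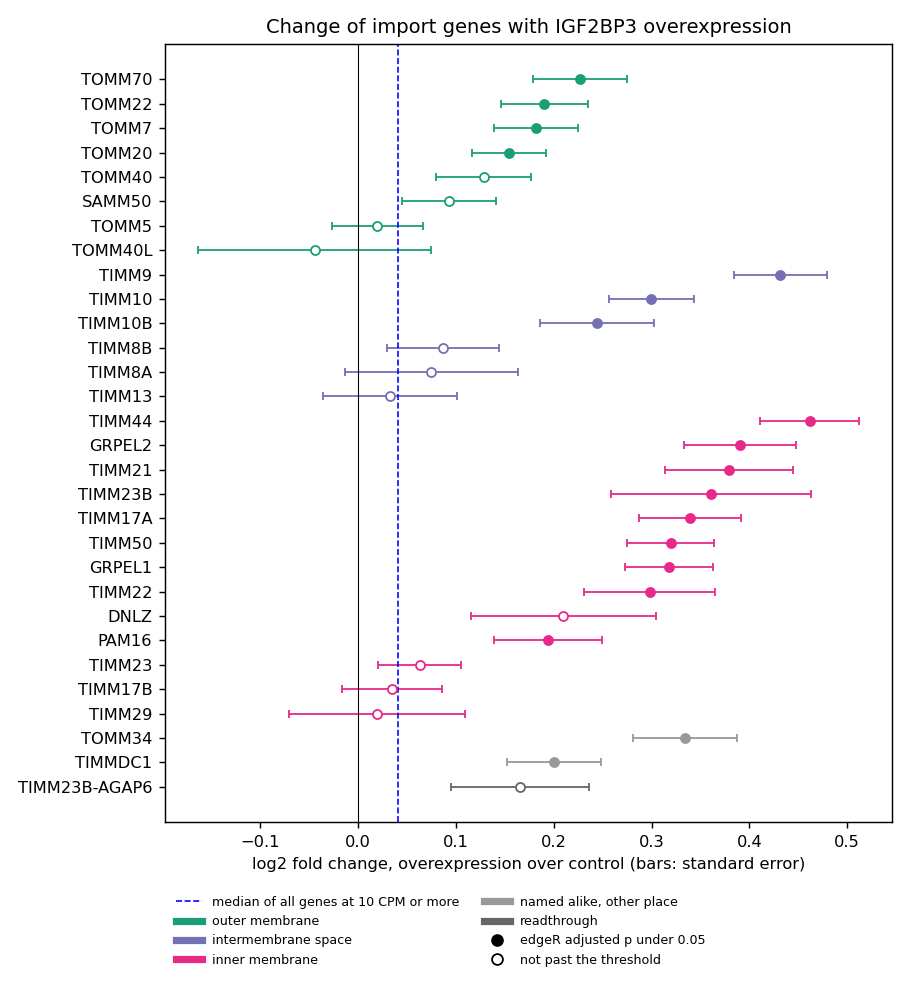
Each point is the log2 fold change (overexpression over control, 3 libraries each) of a tested member with its standard error, grouped by place in the cell, and filled where the edgeR adjusted p was under 0.05. The inner membrane members reach from 0.02 to 0.46 and the outer membrane members from −0.04 to 0.23, beside a median of 0.04 over all genes at 10 CPM or more.

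By place, 9 of 13 inner membrane members rose (median log2 fold change 0.32), 3 of 6 intermembrane space members rose (median 0.17) and 4 of 8 tested outer membrane members rose (median 0.14). In each place 0 fell. The inner membrane members summed to 946, 935 and 944 CPM in controls and to 1109, 1133 and 1086 CPM with overexpression, 1.18 times as high on average. The outer membrane members summed to 1111, 1106 and 1131 CPM in controls and to 1219.8, 1251 and 1239 CPM with overexpression, 1.11 times as high. The ratio of the inner to the outer sum was 0.851, 0.845 and 0.835 in controls and 0.909, 0.905 and 0.877 with overexpression, so the ratios of the groups did not overlap. This difference between the membranes is given as a description, since the members and their places were chosen with results known. Across the 30 tested members the log2 fold change had a Spearman correlation of −0.12 with log2 of the control mean CPM, 0.11 with the length and −0.24 with the GC content of the longest transcript, as a description over genes that share the same libraries.

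**Figure D2:**
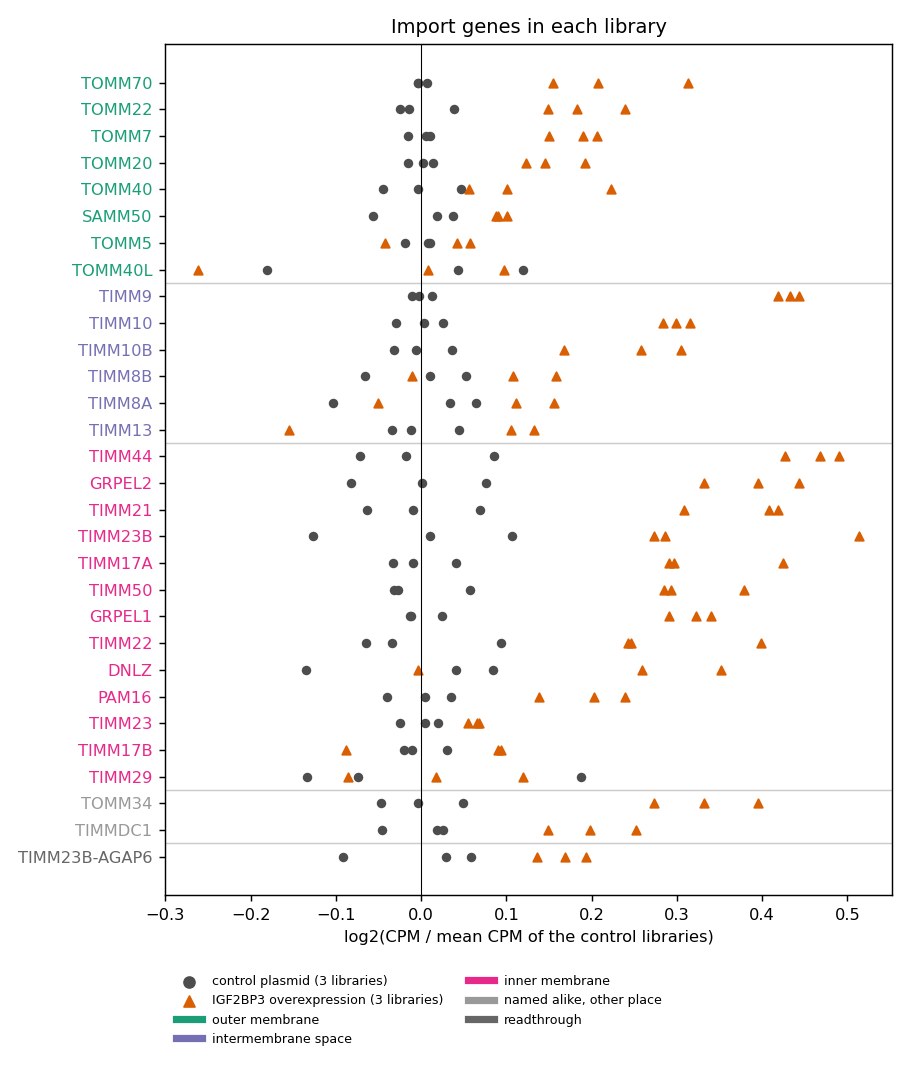
Each row is a tested member and each point 1 library, as log2 of its CPM over the mean CPM of the 3 control libraries (circles: control; triangles: overexpression). For TIMM9, TIMM10, TIMM44 and the 3 receptors TOMM20, TOMM22 and TOMM70 every triangle lies to the right of every circle, while for TOMM5, TOMM40L, TIMM13, TIMM17B and TIMM29 the groups overlap.

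At the outer membrane, the 3 tested receptors rose and the pore genes did not pass. TOMM20 (ENSG00000173726.11, chromosome 1, 235109336 to 235128936, minus strand, GRCh38), a receptor for presequences, measured 304, 310.1 and 308 CPM in controls and 339.8, 334 and 351 CPM with overexpression. Its log2 fold change was 0.15 ± 0.04 (SE, edgeR adjusted p = 0.0069). TOMM22 (ENSG00000100216.6, chromosome 22, 38681948 to 38685421, plus strand), the receptor that also holds the complex together, was at 126, 127 and 132 CPM and then 142, 151 and 146 CPM, a log2 fold change of 0.19 ± 0.04. TOMM70 (ENSG00000154174.8, chromosome 3, 100363431 to 100401398, minus strand), which takes carrier proteins from cytosolic chaperones, was at 133, 133 and 134 CPM and then 154, 149 and 166 CPM, 1.17-fold higher (0.23 ± 0.05). In each of these genes the lowest overexpression library lay above the highest control.

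TOMM40 (ENSG00000130204.13, chromosome 19, 44890569 to 44903689, plus strand), the pore itself, was at 275, 267 and 285 CPM in controls and 296, 322 and 287 CPM with overexpression. The groups did not overlap, yet the lowest overexpression library was close to the highest control and the test was just missed (log2 fold change 0.13 ± 0.05, edgeR adjusted p = 0.055). It was called higher without overexpression replicate 3 (0.16, edgeR adjusted p = 0.018), with DESeq2 (0.14, adjusted p = 0.044), with the GC and length trends removed (0.26, edgeR adjusted p = 1.344e-04) and on the authors' FPKM. Its paralog TOMM40L was at 8.13, 7.71 and 6.598 CPM and 6.24, 7.998 and 7.52 CPM, with overlapping groups (−0.04 ± 0.12, edgeR adjusted p = 0.8). It shares 20.1% of its exon bases with NR1I3 on the opposite strand.

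Among the small subunits that steady the pore, TOMM7 rose from 106, 104 and 106 CPM to 122, 120.2 and 117 CPM (0.18 ± 0.04, edgeR adjusted p = 0.0055) with no overlap between the groups. TOMM5 (93.6 ± 1.06 and 94.9 ± 3.47 CPM, SD, n = 3 each) had overlapping groups and a log2 fold change of 0.02 ± 0.05. It shares 14.3% of its exon bases with AL138752.2 and 9.33% with AL513165.2, both on its own strand. SAMM50, the barrel insertase, was at 64.4 ± 2.201 and 68.7 ± 0.317 CPM (0.09 ± 0.05, edgeR adjusted p = 0.15). Its groups did not overlap, but it did not pass. The groups did not overlap in 50.6% of all genes tested and in 6020 of the 9562 genes at 10 CPM or more.

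In the intermembrane space 3 members passed the test and 3 did not. TIMM9 and TIMM10 form the hexamer that escorts carrier proteins to TIM22, and TIMM10B sits on that complex. All 3 rose. TIMM9 (ENSG00000100575.14, chromosome 14, 58408494 to 58427614, minus strand) was at 42.8, 43.5 and 43.1 CPM in controls and 57.7, 58.6 and 58.2 CPM with overexpression, and the spread within each group was under 1 CPM (SD 0.341 and 0.480). Its log2 fold change of 0.43 ± 0.05 was the second largest of the members (edgeR adjusted p = 3.334e-05). TIMM10 (ENSG00000134809.9, chromosome 11, 57528463 to 57530803, minus strand) rose from 90.4, 93.8 and 92.4 CPM to 115, 112 and 113 CPM (0.30 ± 0.04). TIMM10B rose from 34.3, 33.3 and 32.7 CPM to 37.6, 40.02 and 41.3 CPM (0.24 ± 0.06). The groups stood clear of each other in all 3 genes. TIMM9 shares 14.9% of its exon bases with KIAA0586 and 11.5% with TOMM20L, both on the opposite strand. TIMM10B shares 13.5% with another annotated gene on its own strand. Whether the counting used the strand is not stated in the labels or headers, so the split of reads between such genes is uncertain.

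The other hexamer, of TIMM8 and TIMM13 proteins, escorts TIMM23 and similar proteins, and its genes did not pass. TIMM8A, whose loss causes deafness-dystonia syndrome, was at 11.1, 9.86 and 10.8 CPM and 11.8, 10.2 and 11.4 CPM (0.07 ± 0.09). TIMM8B was at 61.01, 56.2 and 59.2 CPM and 63.4, 65.6 and 58.4 CPM (0.09 ± 0.06, edgeR adjusted p = 0.26). TIMM13 was at 105, 99.8 and 101 CPM and 110.0, 112 and 91.8 CPM (0.03 ± 0.07, edgeR adjusted p = 0.74). In TIMM13 overexpression replicate 3 lay below all controls, and the other two lay above them. Without that library and control replicate 1 together, TIMM8B and TIMM13 were called higher (0.16, edgeR adjusted p = 0.0056, and 0.14, edgeR adjusted p = 0.0024), and so they were with the GC and length trends removed (0.13, edgeR adjusted p = 0.046, and 0.22, edgeR adjusted p = 7.032e-04). The difference between the hexamers was not tested. TIMM8B shares 30.1% of its exon bases with NKAPD1 on the opposite strand. TIMM13 shares 13.0% with LMNB2 on its own strand and 15.9% with TMPRSS9 on the opposite strand. The counts of TIMM9 and TIMM10 together, over those of TIMM8A, TIMM8B and TIMM13, gave a ratio of 0.750, 0.828 and 0.790 in controls and of 0.931, 0.909 and 1.06 with overexpression. The groups did not overlap in this ratio, which was chosen after the values were seen and was not tested.

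**Figure D3:**
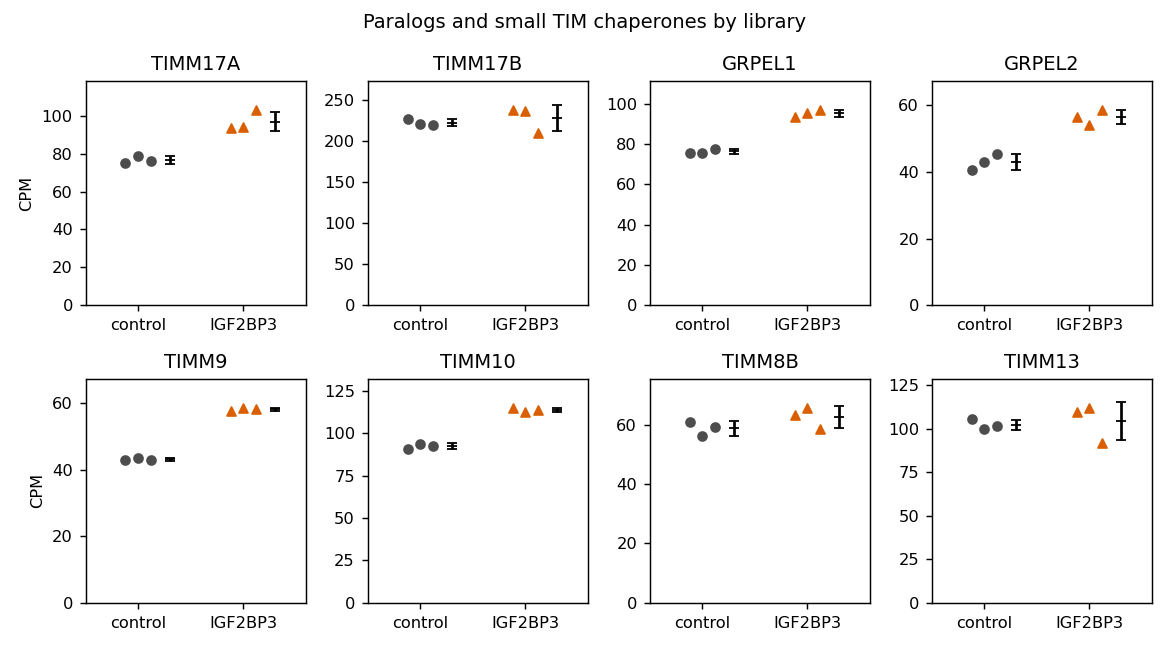
CPM in each library (points), with mean and SD beside them (n = 3), for 8 members on axes that start at 0. TIMM17A, GRPEL1, GRPEL2, TIMM9 and TIMM10 are higher in all 3 overexpression libraries, while TIMM17B, TIMM8B and TIMM13 have overexpression replicate 3 within or below the control range.

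At the inner membrane, the presequence translocase is built around TIMM23 and TIMM17, with TIMM50 as its receptor and TIMM21 as a coupling subunit. TIMM50 (ENSG00000105197.11, chromosome 19, 39480412 to 39493785, plus strand) rose from 203, 192 and 191 CPM to 239, 254 and 238 CPM (0.32 ± 0.04, edgeR adjusted p = 1.734e-04). TIMM21 rose from 20.4, 22.3 and 21.2 CPM to 26.4, 28.2 and 28.5 CPM (0.38 ± 0.07, edgeR adjusted p = 7.738e-04). Both had every overexpression library above every control. The channel gene TIMM23 itself was at 106, 104 and 107 CPM and 110.0, 111 and 111 CPM, a narrow step with no overlap that did not pass (0.06 ± 0.04, edgeR adjusted p = 0.27). With the GC and length trends removed it was called higher (0.12, edgeR adjusted p = 0.031). The count of TIMM50 over that of TIMM23 was 1.91, 1.84 and 1.78 in controls and 2.17, 2.28 and 2.14 with overexpression, again a ratio chosen after the values were seen.

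TIMM23B, a near-identical copy of TIMM23, was called higher at a low level (8.18, 6.96 and 7.65 to 9.26, 9.18 and 10.8 CPM, 0.36 ± 0.10, edgeR adjusted p = 0.015). The call ended when control replicate 2 or overexpression replicate 3 was left out (edgeR adjusted p = 0.060 and 0.061). Reads cannot be assigned to either copy with certainty, so both values are uncertain. The row named TIMM23B-AGAP6 shares 18.4% of its exon bases with TIMM23B and did not pass (15.8 ± 0.856 and 17.8 ± 0.359 CPM, 0.17 ± 0.07, edgeR adjusted p = 0.085). By the positions used here it begins at 49972763 on chromosome 10, near the end of TIMM23B at 49974850.

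The paralogs TIMM17A and TIMM17B are alternative subunits of the channel. TIMM17A (ENSG00000134375.11, chromosome 1, 201955491 to 201970661, plus strand), known as a short-lived protein that is lowered under translational stress, rose from 74.9, 78.8 and 76.2 CPM to 93.8, 94.2 and 103 CPM (0.34 ± 0.05, edgeR adjusted p = 3.415e-04). TIMM17B (ENSG00000126768.12, chromosome X, 48893447 to 48898143, minus strand) was at 228, 221 and 219.7 CPM and 238, 237 and 209.7 CPM (0.03 ± 0.05, edgeR adjusted p = 0.63). TIMM17B was called higher without control replicate 1 and overexpression replicate 3 together (0.11, edgeR adjusted p = 0.0041) and with the GC and length trends removed (0.16, edgeR adjusted p = 0.0026). The log2 ratio of their counts was −1.60, −1.49 and −1.53 in controls and −1.34, −1.33 and −1.03 with overexpression, a difference of 0.31. The groups did not overlap, and overexpression replicate 3 lay farthest out. Without it the difference was 0.20. The exact permutation test over libraries gave p = 0.1, the smallest possible (adjusted p = 0.5 over the 5 pairs tested).

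TIMM23 to TIMM23B was kept out of these tests because the copies are nearly identical. Its log2 ratio was 3.70, 3.90 and 3.81 in controls and 3.57, 3.60 and 3.35 with overexpression, a difference of −0.30 with no overlap, and it is as uncertain as the split of reads between the copies. The other 4 pairs had groups that overlapped. The differences in log2 ratio were 0.17 for TOMM40 to TOMM40L, −0.07 for GRPEL1 to GRPEL2, −0.01 for TIMM8A to TIMM8B and 0.06 for TIMM10 to TIMM10B. The exact permutation p ran from 0.3 to 1. With 3 libraries a group none of the pairs could pass a threshold of 0.05, so these values do not show that the paralogs moved alike.

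In the carrier translocase, TIMM22, its channel, rose from 29.4, 32.8 and 30.00 CPM to 36.4, 40.5 and 36.3 CPM (0.30 ± 0.07, edgeR adjusted p = 0.0041). TIMM29, a metazoan subunit of the same complex, was at 21.6 ± 2.63 and 21.9 ± 1.56 CPM with overlapping groups (0.02 ± 0.09). Control replicate 1 held its highest value, 24.6 CPM, where the other controls had 19.7 and 20.5 CPM. Without control replicate 1 and overexpression replicate 3 together, TIMM29 was called higher (0.17, edgeR adjusted p = 0.048). So it was with the GC and length trends removed (0.21, edgeR adjusted p = 0.022).

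The import motor pulls chains into the matrix by cycles of the chaperone HSPA9. TIMM44 (ENSG00000104980.8, chromosome 19, 7926718 to 7943920, minus strand), which tethers HSPA9 to the channel, showed the largest rise of all members, from 82.6, 85.8 and 92.1 CPM to 120.1, 122 and 117 CPM. The change was 1.38-fold, a log2 fold change of 0.46 ± 0.05 (edgeR adjusted p = 3.379e-05). GRPEL1 (ENSG00000109519.13, chromosome 4, 7058906 to 7068197, minus strand) and GRPEL2 (ENSG00000164284.15, chromosome 5, 149345430 to 149354583, plus strand) exchange the nucleotide of HSPA9, and both rose. GRPEL1 went from 75.8, 75.8 and 77.8 CPM to 93.5, 95.6 and 96.8 CPM (0.32 ± 0.04), and GRPEL2 from 40.7, 43.1 and 45.4 CPM to 56.6, 54.2 and 58.5 CPM (0.39 ± 0.06). All 3 genes had groups that did not overlap.

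PAM16, a partner of the motor's J-domain protein, rose from 34.8, 33.8 and 35.6 CPM to 39.99, 41.01 and 38.2 CPM (0.19 ± 0.06, edgeR adjusted p = 0.016). It no longer passed when replicate 2 of either group was left out (edgeR adjusted p = 0.065 and 0.062) and under upper quartile scaling (edgeR adjusted p = 0.050). It shares 21.9% of its exon bases with the readthrough gene CORO7-PAM16. DNLZ, which keeps HSPA9 soluble, was at 17.3, 19.5 and 20.1 CPM and 22.7, 24.2 and 18.9 CPM, with overlapping groups (0.21 ± 0.09, edgeR adjusted p = 0.1). It was called higher without overexpression replicate 3 (0.31, edgeR adjusted p = 0.015). Of its exon bases 22.9% are shared with CARD9.

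The genes named alike but counted in none of the places also rose. TOMM34, a cytosolic cochaperone that hands chains to the outer membrane, went from 47.1, 48.9 and 45.7 CPM to 57.1, 62.1 and 59.5 CPM (0.33 ± 0.05, edgeR adjusted p = 4.510e-04). TIMMDC1, an assembly factor of respiratory complex I, went from 86.2, 86.6 and 82.4 CPM to 101, 94.3 and 97.6 CPM (0.20 ± 0.05, edgeR adjusted p = 0.0063). Neither had any overlap between the groups. TIMMDC1 shares 29.2% of its exon bases with CD80 on the opposite strand, a gene with 4 counts over all libraries.

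Per transcript length the members spanned a wide range, and the order hardly followed the change. On the authors' FPKM scale the highest control means were TIMM10 (99.02 FPKM), TOMM20 (74.5), TIMM23 (74.2), TIMM17B (72.4) and TOMM40 (63.7). The control ranges of TOMM20, TIMM23 and TIMM17B overlap, so that part of the order is not fixed. TIMM9 (25.4 FPKM) stood well below its hexamer partner TIMM10. Their FPKM ratio was 0.260, 0.254 and 0.255 in controls and 0.275, 0.286 and 0.281 with overexpression. TIMM44 (15.6), GRPEL1 (15.7) and TIMM21 (3.41), all with large rises, were at middle or low level. The labels and headers do not state the gene lengths behind the FPKM.

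**Figure D4:**
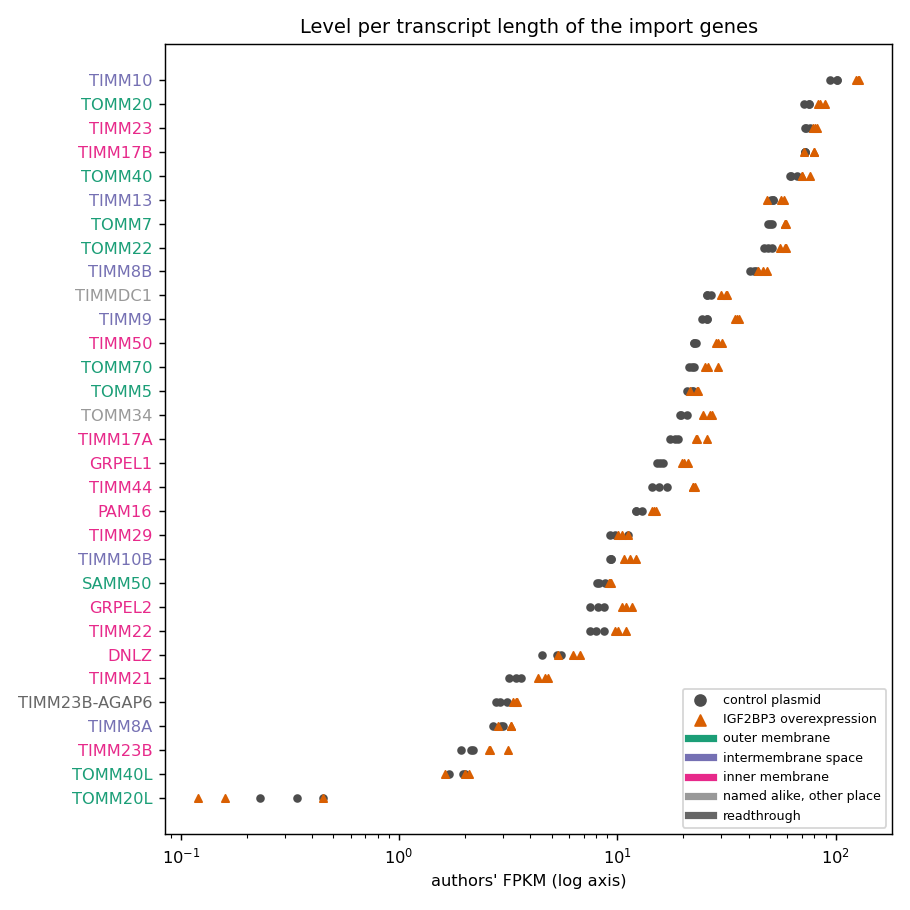
The authors' FPKM in each library on a log axis (circles: control; triangles: overexpression), with members ordered by their control mean. TIMM10 is highest at a control mean of 99.02 FPKM and TOMM20L lowest at 0.3400 FPKM, and the shift between groups is small beside the range between genes.

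The 7 members whose window before the RefSeq start held CCGGAAGT included 6 that rose (TOMM20, TOMM70, TIMM10, TIMM10B, GRPEL2 and TIMMDC1) and TIMM29, which did not pass. Their median log2 fold change was 0.23. Of the 18 tested members with a window but without those letters 11 rose, with a median of 0.19. Among all tested genes at 10 CPM or more with a window, 36.9% of 659 with CCGGAAGT rose and 12.1% fell, against 28.8% and 22.1% of 6855 without it. These shares are over genes, which are not independent, and are given without a test. Calls were split in this way only for CCGGAAGT, the motif with the largest excess among the members. Whether the shares are particular to it was not tested.

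A list of 50 partner genes of the machinery, of which 49 had a row and all 49 were tested, showed 25 higher and 1 lower, beside 18.5% higher and 19.2% lower over all genes tested and 28.8% and 22.1% at 10 CPM or more, with a median log2 fold change of 0.13. HSPA9, the motor chaperone, rose from 415, 442 and 434 CPM to 500.1, 515 and 529 CPM (0.26 ± 0.04, edgeR adjusted p = 3.539e-04). The receiving system of the intermembrane space, in which CHCHD4 introduces disulfide bonds into small TIM proteins and GFER reoxidises it, had 2 of 3 members higher. CHCHD4 rose from 30.4, 32.8 and 32.96 CPM to 40.9, 40.3 and 45.4 CPM (0.40 ± 0.06), and GFER, named after its values were seen, from 42.6 ± 1.29 to 53.8 ± 1.87 CPM (0.34 ± 0.05).

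Of 10 outer membrane partners 6 rose and 1 fell. ATAD1, which extracts mislocalised proteins from that membrane, had the largest rise of the list (48.4, 57.02 and 57.6 to 79.4, 79.6 and 95.3 CPM, 0.64 ± 0.08). MTX3 rose (0.51 ± 0.07) and so did MTX2 (0.20 ± 0.06), partners of SAMM50, while MTX1 had −0.06 ± 0.06 (edgeR adjusted p = 0.43). The single fall was in the porin gene VDAC1, from 392, 391 and 393 CPM to 354, 365 and 363 CPM (−0.12 ± 0.04, edgeR adjusted p = 0.02), whereas the insertase gene MTCH2 rose by a similar size (0.11 ± 0.04). Of 4 inner membrane partners 2 rose, AGK, a subunit of the carrier translocase (0.25 ± 0.07, edgeR adjusted p = 0.013), and MAIP1, a factor of inner membrane protease assembly (0.46 ± 0.06, edgeR adjusted p = 1.046e-04).

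Among 12 proteases and peptidases 5 rose and 0 fell. PMPCA, a subunit of the presequence peptidase, rose (0.14 ± 0.05, edgeR adjusted p = 0.027), and the catalytic subunit PMPCB had 0.08 ± 0.05 (edgeR adjusted p = 0.23). Of 7 cytosolic delivery chaperones 5 rose, of 3 matrix folding factors 2 rose, among them HSPE1 (0.13 ± 0.04), and of 4 genes of the motor and presequence carriage 2 rose. Of 6 cristae junction genes 1 rose and 0 fell, with a median of 0.03. Over all genes tested 18.5% rose, and among genes at 10 CPM or more 28.8%. The groups are small, and their shares were not tested against those of all genes.

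**Figure D5:**
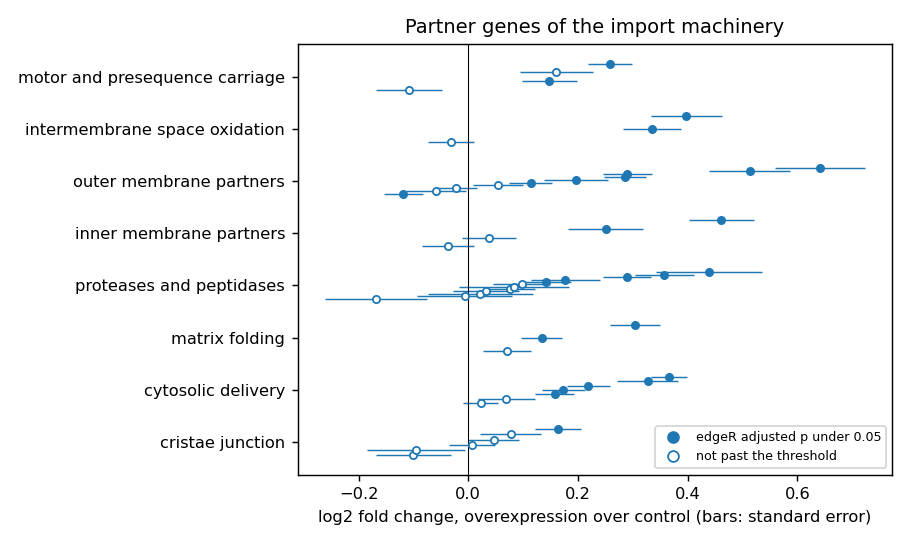
Log2 fold change with standard error for the 49 partner genes, by function, filled where the edgeR adjusted p was under 0.05. Points for cristae junction genes lie between −0.10 and 0.16, and ATAD1 among the outer membrane partners reaches 0.64.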

How the data were processed

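Polyadenylated RNA was sequenced as paired reads with a strand-marking kit, per the labels' protocols. The deposited tables hold the authors' raw gene counts and FPKM rounded to 2 decimals. HISAT2, DESeq2 and build GRCh38 are named, without versions, per the submitters' processing notes, while counter, strand setting and annotation release were not given in the sources used here. Libraries were grouped by their titles. The test was that of edgeR 4.0.16 under R 4.3.3 (filterByExpr, count minimum 10, total minimum 15, TMM, quasi-likelihood F test, group as the only term, Benjamini-Hochberg over 17747 genes). Levels are CPM on TMM-scaled library sizes, ± after a level is the SD and ± after a log2 fold change the standard error, taken from the fold change and F. Alternatives used other scalings, filters and thresholds, a replicate term, DESeq2 1.42.0, limma 3.58.1 (voom, and log2 FPKM plus 1 or 0.1 where the mean FPKM was 0.1 or more), libraries left out, and removal of GC and length trends (splines with 5 degrees of freedom, GENCODE 29 transcripts, 98.6% of genes matched). The code was tested on simulated data. Gene positions and overlaps are from GENCODE 29 (GRCh38), matched by Ensembl ID. Members, lists and places were chosen with earlier results of these data known. Every member is named, and values in each library are given for members called and for paralogs. Of the partners, the 3 highest and 3 lowest called and 7 set genes are named, and GFER was named after its values were seen.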

Additional observations from a re-analysis of the deposited data

How the results depend on the processing

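Under 20 alternatives the number of members called higher ran from 16 to 26 around 18, and 0 were called lower in any. Of the 18 called members 16 kept their call under every alternative other than the stricter threshold of 0.01, TIMM23B and PAM16 lost it in at least 1, and 0 changed sign. At 0.01 the count was 16. The intermembrane space count moved from 3 to 5 without control replicate 1 and overexpression replicate 3 together. It was also 5 when the GC and length trends were removed. In these settings, in that order, the inner membrane count was 12 and 13, from 9, and the outer membrane count 5 and 5, from 4. The cause of these shifts was not tested. Leaving out 1 library at a time gave 16 to 19 members, 7 to 9 inner membrane, 4 to 5 outer membrane and 3 intermembrane space members called higher. The labels do not say whether the replicate numbers pair the libraries. Deviations of same-numbered libraries correlated at 0.089, −0.043 and 0.082, and with 3 libraries a group these values cannot settle it. With the replicate block 18 members were called higher and 0 lower (9 inner, 4 outer and 3 intermembrane space), and IGF2BP3 had a log2 fold change of 2.57.

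Sign changes were seen only among members that had not passed. Upper quartile scaling gave −0.0110 for TIMM13, −0.0094 for TIMM17B, −0.0254 for TIMM29 and −0.0244 for TOMM5. A mean of at least 10 CPM gave −0.0031 for TIMM13, −0.0014 for TIMM17B, −0.0176 for TIMM29 and −0.0160 for TOMM5. TOMM5 was at −0.0015 without control replicate 1 and overexpression replicate 3 together and at −0.0042 with the trends removed. TOMM40L was at 0.0062 and 0.0075 on log2 FPKM with pseudocounts of 1 and 0.1 and at 0.0321 with the trends removed. With 1 library left out, TIMM13 ranged from −0.0167 to 0.119, TIMM29 from −0.0417 to 0.122 and TOMM40L from −0.127 to 0.0590, and the difference in the TIMM8A to TIMM8B ratio from −0.0796 to 0.0859. The other paralog differences kept their sign but moved: TOMM40 to TOMM40L ran from 0.0817 without overexpression replicate 1 (0.109 without control replicate 1) to 0.284 without control replicate 3, GRPEL1 to GRPEL2 from −0.105 to −0.0396 without control replicate 1, and TIMM10 to TIMM10B from 0.0102 without overexpression replicate 1 (0.0234 without control replicate 1) to 0.0871 without overexpression replicate 3. TOMM20L, at 3 to 12 counts a library, was too shallow to test, and of the tested members TOMM40L had the largest standard error (0.119).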
